A study of Mus musculus with 24 samples.

Results

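The Notch pathway and its Hes and Hey targets were described in cultured mouse cortical neurons, as 10 genes of the 55177 genes to which the transcripts were assigned. The members were chosen by gene symbol: the ligand genes Dll1 and Jag1, the receptor genes Notch1 and Notch2, the DNA-binding factor Rbpj, and the repressor genes Hes1, Hes5, Hes6, Hey1 and Hey2. The choice was made with Hes5 already known to be among the genes with the lowest values after KCl at day 7 in vitro (DIV7), so the values of that comparison are given for the members as a description, with no test. No cut-off on a measured value defined the list, and all 10 members passed the low-count filter at both ages.

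RNA was sequenced in 24 libraries of cortical neurons taken from mouse embryos at embryonic day 16.5 (E16.5). Every culture, at rest or not, had spent the night in the sodium channel blocker tetrodotoxin (1 µM) and the NMDA receptor blocker D-AP5 (100 µM). Depolarization was by KCl at 50 mM, applied over 30 min. The DIV7 set held 2 resting and 2 depolarized WT cultures, all given 0.1% DMSO, and was sequenced as poly(A)-selected RNA. The DIV18 set was sequenced as total RNA depleted of rRNA. The DIV18 controls carried a non-targeting gRNA (NT; 2 resting, 2 depolarized). The other DIV18 cultures were Smarcc2 knockouts, Smarcc2 being a subunit of the BAF chromatin remodelling complex. They carried an empty vector (3 resting, 3 depolarized), an addback of WT Smarcc2 (2 and 3), an addback of Smarcc2(S586E) (3, resting only) or an addback of Smarcc2(S586A) (2, depolarized only). No vector is named for the NT cultures, and no DIV7 culture is labelled with a guide. Per the labels' protocols, the cortex of each embryo counted as a biological replicate.

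Notch signalling passes between neighbouring cells. A Delta or Jagged ligand on one cell binds a Notch receptor on another, the receptor is cleaved first by an ADAM protease and then by gamma-secretase, and the freed intracellular part enters the nucleus. There it joins Rbpj and Mastermind-like coactivators on DNA and turns on Hes and Hey genes, whose proteins repress proneural transcription factors. In developing cortex the pathway is best known for keeping radial glia as progenitors, and later for astrocyte fate. Hes6 is an exception within its family, since its protein can oppose Hes1.

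Depth and composition were as follows. Estimated counts summed to between 24536056 and 30135576 per library at DIV7 and between 14510199 and 24024959 at DIV18. Smarcc2 was at 237 to 283 CPM (counts scaled to a common library total after TMM normalisation) in the 4 NT libraries, at 47.1 to 64.1 CPM with vector and at 737 to 1340 CPM in the addback libraries. Against the label of primary neurons, 9 neuronal markers summed to between 4320 and 6570 CPM over all 24 libraries, with none of them at 0. Markers of astrocytes (9 genes) summed to between 554 and 659 CPM at DIV7 and to between 855 and 2020 CPM at DIV18, so glial RNA was present too. In bulk RNA, fewer cells of a type and less RNA per cell cannot be told apart.

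Upstream sequences are shown for 3 genes that have an entry in the promoter table. Among the members and the pathway list with such an entry, these genes had the lowest KCl to rest ratios at DIV7. They were chosen after their values were seen. Each sequence is the stretch of 250 bases before the start site in RefSeq (GRCm38.p6), written 5′ to 3′ on the strand of the gene. Capitals mark each match to TGGGAA, the core sequence bound by Rbpj, or to its reverse complement. The stretch of Hes5 is chr4:154960673-154960922 (plus strand), that of Lfng chr5:140607091-140607340 (plus strand) and that of Hey2 chr10:30842784-30843033 (minus strand).
Hes5: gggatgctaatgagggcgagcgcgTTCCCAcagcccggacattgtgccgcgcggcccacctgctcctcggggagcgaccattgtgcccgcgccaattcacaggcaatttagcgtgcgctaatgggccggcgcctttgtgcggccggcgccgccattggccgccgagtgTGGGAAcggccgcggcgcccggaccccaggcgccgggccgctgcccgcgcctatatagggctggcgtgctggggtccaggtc
Lfng: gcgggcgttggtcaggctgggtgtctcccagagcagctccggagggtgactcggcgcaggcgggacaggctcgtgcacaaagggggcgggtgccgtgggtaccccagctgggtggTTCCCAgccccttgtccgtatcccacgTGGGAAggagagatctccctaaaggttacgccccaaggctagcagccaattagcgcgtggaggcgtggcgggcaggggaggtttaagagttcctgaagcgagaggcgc
Hey2: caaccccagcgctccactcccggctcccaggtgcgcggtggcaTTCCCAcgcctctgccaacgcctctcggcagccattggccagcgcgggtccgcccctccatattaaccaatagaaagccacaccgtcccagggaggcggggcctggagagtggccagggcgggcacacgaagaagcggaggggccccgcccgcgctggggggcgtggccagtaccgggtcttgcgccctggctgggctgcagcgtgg
Hes5 held 2 matches in opposite orientation, 226 to 221 and 82 to 77 bases before the start. Lfng also held 2 in opposite orientation, closer together, at 135 to 130 and 108 to 103 bases, and the second overlapped a match to the E-box CACGTG at 112 to 107 bases. Hey2 held 1, at 207 to 202 bases. Of 32851 promoters of the same length in the table, 21.6% held at least 1 match to TGGGAA on either strand and 2.77% held at least 2. The E-box CACGTG, a site for Hey-type repressors, occurred in 6.02%, and the N-box CACNAG, a site for Hes-type repressors, in 36.7%. Of the 3 stretches Lfng alone held an N-box match, at 181 to 176 bases. The full cAMP response element TGACGTCA, searched because its binding factor acts early after depolarization, occurred in 1.55% and in none of these 3 stretches. Rbpj, whose DIV7 libraries overlapped between rest and KCl, held 2 matches to TGGGAA in 1 of its 2 listed promoters. Its other listed promoter, which overlaps the first, held 1 match. No match to TGGGAA was found upstream of Notch1, Notch2, Jag1, Dll1 or Hes6. Hes1 and Hey1 had no entry in the promoter table and were not searched. A match is a string of letters and was not tested as a binding site. Whether matches go with the KCl values was not tested.

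At DIV7, after 30 min of KCl, Hes5 was far lower than at rest. Hey2, Dll1 and Notch2 were lower by smaller factors, and Rbpj, Hes6 and Jag1 overlapped between rest and KCl. The low value of Hes5 was known when the members were chosen, so the values of the members carry no test here. Over all 19822 genes tested in this comparison, 17% were called at an adjusted p under 0.05 (edgeR quasi-likelihood test, Benjamini-Hochberg adjustment), with a median log2 fold change of -0.001. Of the 10 members, 6 had both depolarized libraries below both resting ones and 1 had both above. Among all genes tested 30.7% were lower without overlap and 28.5% higher, the 2 libraries a group being few. The median of the members was -0.23.

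Dll1, which encodes a Delta ligand (ENSMUSG00000014773.13; GRCm38, chromosome 17, 15367354 to 15376872, minus strand), had 21.5 and 23.4 CPM in resting DIV7 cultures and 12.1 and 11.2 CPM in depolarized ones. The groups did not overlap, and the log2 fold change was -0.94. Jag1, the Jagged ligand (ENSMUSG00000027276.7; chromosome 2, 137081456 to 137116644, minus strand), was at 1.82 and 2.70 CPM at rest and at 1.69 and 2.77 CPM after KCl. The spread within each group was larger than the difference between them (-0.02). Notch1 (ENSMUSG00000026923.15; chromosome 2, 26457903 to 26516663, minus strand) was at 8.88 and 8.14 CPM at rest and at 9.16 and 9.80 CPM after KCl, a log2 fold change of 0.15. Notch2 (ENSMUSG00000027878.11; chromosome 3, 98013527 to 98150361, plus strand), the other receptor, was at 21.4 and 20.3 CPM at rest and at 13.6 and 13.2 CPM after KCl. So 1 receptor gene was lower by 0.64 in log2 (-0.64) without overlap, and the other was slightly higher. Once transcript lengths were taken into account Notch1 was at -0.09, so its direction depends on the lengths used. Rbpj (ENSMUSG00000039191.12; chromosome 5, 53466152 to 53657362, plus strand) was at 31.7 and 31.3 CPM at rest and at 31.2 and 31.6 CPM after KCl, and the groups overlapped.

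Among the repressor genes, Hes5 (ENSMUSG00000048001.7; chromosome 4, 154960923 to 154962371, plus strand) was at 3.68 and 3.38 CPM at rest, from 105 and 84 counts. After KCl it was at 0.169 and 0.328 CPM, from 5 and 9 counts. The log2 fold change was -3.82, and it lay between -4.35 and -3.41 when a library was left out. Hey2 (ENSMUSG00000019789.9; chromosome 10, 30832359 to 30842801, minus strand) was at 1.79 and 1.49 CPM at rest and at 0.642 and 0.692 CPM after KCl, a log2 fold change of -1.30 from 51, 37, 19 and 19 counts. Its relative Hey1 (ENSMUSG00000040289.8; chromosome 3, 8663359 to 8667256, minus strand) was at 15.3 and 15.7 CPM at rest and at 12.2 and 13.5 CPM after KCl (-0.27). Hes1 (ENSMUSG00000022528.8; chromosome 16, 30064384 to 30067796, plus strand), the repressor most widely used as a Notch target, was at 1.61 and 1.73 CPM at rest and at 1.42 and 1.53 CPM after KCl. Its log2 fold change of -0.18 became -0.90 once transcript lengths were taken into account, so its size depends on the transcript lengths used. The protein-coding form Hes1-201 had a mean of 35.1 estimated counts at rest and 38.3 after KCl. The form Hes1-202, a processed transcript of 344 bases, had 5.5 and 1.5. In TPM (counts scaled by length), coding Hes1 was at 1.775 and 1.914 at rest and at 1.702 to 1.984 over the 4 DIV7 libraries, so rest and KCl overlapped. Hes6 (ENSMUSG00000067071.8; chromosome 1, 91411483 to 91414038, minus strand) was at 66.6 and 59.8 CPM at rest and at 70.1 and 60.8 CPM after KCl, with overlap. The repressor genes thus ran from -3.82 (Hes5), the lowest of the list, to 0.05 (Hes6). In the same fit, without transcript lengths, the receptor gene Notch1 was the highest.

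**Figure D1:**
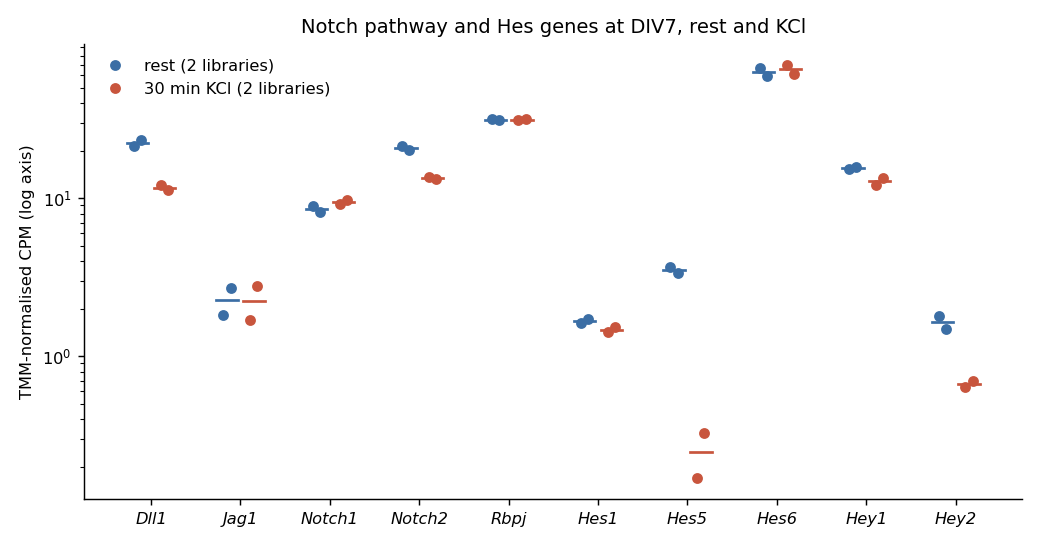
Level of each member at DIV7, as TMM-normalised CPM on a log axis, in 2 resting (blue) and 2 depolarized (red) libraries; points are libraries and bars are means. Hes5 went from 3.38 and 3.68 CPM to 0.169 and 0.328 CPM, while the Rbpj points overlap.

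The rest of the pathway was read from a list of 65 further genes, of which 59 were tested at DIV7. That list was chosen with earlier results of these data known. After KCl 16 were called, 8 higher and 8 lower, with a median of -0.04, against 17% of all genes. Lfng, which extends sugars on Notch and so sets which ligand it answers to, fell from 4.46 and 3.46 CPM to 1.25 and 1.75 CPM (log2 fold change -1.41, SE 0.242, adjusted p 0.0101, edgeR). Pofut1 (-0.43) and Poglut1 (-0.43), which add the first sugars to Notch, and Neurl1b (-0.20), a ligase for ligands, were also lower. With Lfng these made 4 of the 9 genes of glycosylation and ligand endocytosis, none of which was called higher. The count depends on the fit: DESeq2 did not call Pofut1 (adjusted p 0.0851) or Neurl1b (adjusted p 0.164), and with length offsets Poglut1 alone of the 4 passed. Adam17, which codes for a sheddase, rose from 13.7 and 13.7 CPM to 22.8 and 23.5 CPM (0.76, SE 0.0802, adjusted p 0.00178, edgeR), the 1 call among 9 cleavage genes. Of the nuclear cofactors, the corepressor genes Spen (0.26) and Ncor1 (0.21) and the acetyltransferase gene Ep300 (0.24) were higher. Tle2, which encodes a Groucho-type corepressor recruited by Hes proteins, was lower (-0.55). Id1, whose product blocks proneural factors, rose from 1.54 and 1.49 CPM to 3.75 and 4.52 CPM (1.44, SE 0.198, adjusted p 0.00462, edgeR). Other calls were Jag2 (-0.30), Dtx2 (-0.77) and Neurod6 (-0.15), which were lower, and Dner (0.17) and Itch (0.32), which were higher. The 16 calls became 3 without resting replicate 1, 6 without resting replicate 2, 10 without KCl replicate 1 and 8 with length offsets. Lfng did not pass without resting replicate 1 (-1.21, adjusted p 0.0522, edgeR). Once length offsets were used neither Lfng (-1.07, adjusted p 0.0505) nor Adam17 (0.57, adjusted p 0.0807) passed, while Id1 passed in all 9 alternatives. Among markers measured beside these, Sox9 (0.59), Vim (0.21) and Map2 (0.20) were called higher and Gfap (-0.49), Slc1a3 (-0.23) and Tubb3 (-0.53) lower at DIV7, and the astrocyte sum was 585 and 659 CPM at rest and 554 and 570 CPM after KCl. Their part in these values was not tested.

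At DIV18 no member passed the test for a KCl response in any culture. In NT cultures 2 of 20940 genes were called (0.00955%), with vector 0.0716%, with WT addback 0.043%, and for the mean of the 3 responses 0.449%. By edgeR 0 of the 10 members were called in each of these 4 comparisons, and by DESeq2 also 0. At an unadjusted p under 0.05 there were 0, 0, 1 and 0 members. The 1 was Rbpj with WT addback, at 12.4 and 15.3 CPM at rest and 16.8, 16.1 and 17.5 CPM after KCl (log2 fold change 0.28, SE 0.124, adjusted p 0.977, edgeR). Among early-response genes Fosb was called in NT cultures (3.18, adjusted p 0.00463, edgeR). The other early-response genes checked were Fos, Npas4, Egr1, Nr4a1 and Arc. With 2 genes called in all, most of these were not called in NT, so the lack of a member call there says little.

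Hes5 was near the detection limit at DIV18. In NT cultures it was at 0.892 and 1.24 CPM at rest, from 21 and 27 counts, and at 1.04 and 0.480 CPM after KCl, from 22 and 9 counts. With vector it was at 0.0539, 0.633 and 0.510 CPM at rest and at 0.307, 0.296 and 0.391 CPM after KCl. With WT addback it was at 0.380 and 0.997 CPM at rest and at 0.432, 0.593 and 0.627 CPM after KCl. Resting and depolarized libraries overlapped in all 3 cultures. The log2 fold changes were -0.47 (SE 0.619), -0.26 (SE 0.615) and -0.32 (SE 0.589). Their mean was -0.35, with a 95% interval of -1.09 to 0.39 (adjusted p 0.869, edgeR). The fold change was positive for vector without its resting replicate 2 (0.28) and for WT addback without its resting replicate 2 (0.52). Hey2, at 0.162 to 1.10 CPM over the 20 libraries, had a mean response of -0.14 (95% interval -0.93 to 0.65). Dll1 had one of -0.06 (-0.29 to 0.17) and Notch2 one of -0.12 (-0.47 to 0.24). The response at one age was not tested against the other, because age goes with library type and with the guides.

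The difference between responses was tested within DIV18. For vector minus NT 0 of 20940 genes were called (0%; 1845 at an unadjusted p under 0.05, and 9 by DESeq2), and for WT addback minus vector 0 (0%; 768 unadjusted, 0 by DESeq2). None of the 10 members was called by edgeR or DESeq2, and 0 had an unadjusted p under 0.05 in either. None of the 60 pathway genes tested at DIV18 was called in the 3 responses, in their mean or in these differences by edgeR with the low-count filter (up to 4 were without it), with 6, 9, 1, 6, 10 and 2 of them at an unadjusted p under 0.05.

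**Figure D2:**
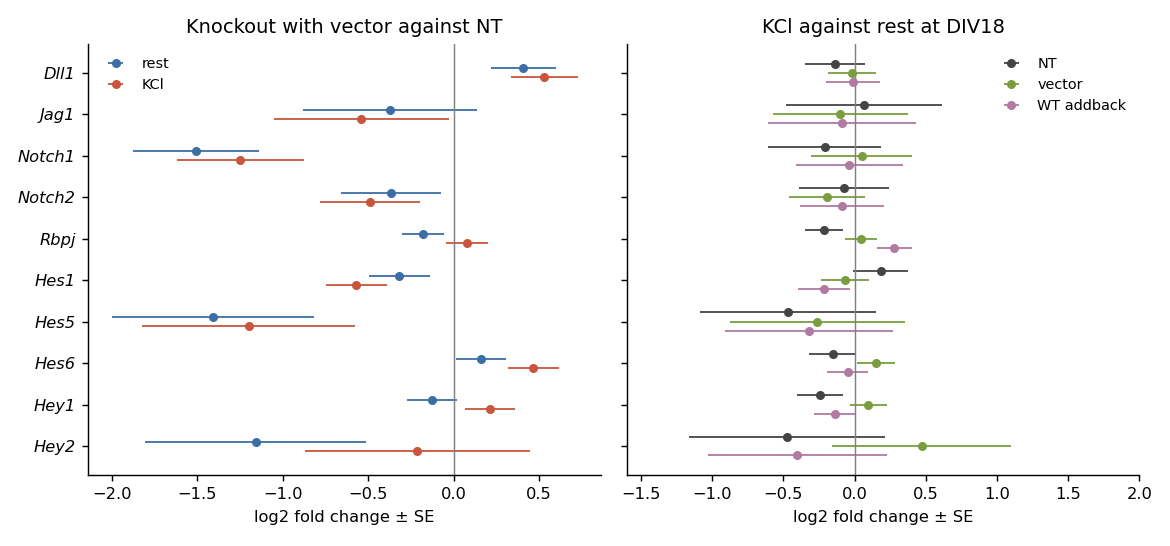
Log2 fold change of each member, with its standard error, for knockout with vector against NT at rest and under KCl (left) and for KCl against rest in NT, vector and WT addback cultures (right). Notch1 lies farthest left in both states on the left (-1.51 and -1.25), and on the right the bars of most members cross 0.

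With Smarcc2 knocked out, Notch1 was the 1 member that passed the test, lower at rest than in NT. Over all genes 5.9% were called in that comparison, so 1 of 10 members is near the background. In resting NT cultures Notch1 stood at 18.7 and 32.7 CPM, and in resting vector cultures at 10.4, 11.8 and 4.58 CPM. All 3 vector libraries lay below both NT libraries, and within each group the highest library was well above the lowest. The log2 fold change was -1.51 (SE 0.368, adjusted p 0.0209, edgeR). It did not pass without NT resting replicate 2 (-1.05, adjusted p 0.402) or without vector resting replicate 3 (-1.20, adjusted p 0.0600), when NT and vector at rest were fitted alone (-1.50, adjusted p 0.0828) or with length offsets (-0.48, adjusted p 0.799). Under KCl, Notch1 was at 16.9 and 27.5 CPM in NT and at 8.60, 11.6 and 7.76 CPM with vector. The order of the groups was the same, again without overlap, but the log2 fold change of -1.25 (SE 0.372) did not pass (adjusted p 0.0820, edgeR).

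The other members gave no call against NT. Over all genes 2.67% were called under KCl, and 0 of 10 members by edgeR and by DESeq2, with 4 at an unadjusted p under 0.05, as had 3466 of the 20940 genes. The medians of the 10 members were -0.34 at rest and -0.35 under KCl, beside 0.02 and 0.02 for all genes. Notch2 was at 18.4 and 21.7 CPM in resting NT and at 20.4, 17.7 and 8.34 CPM with vector, with overlap (-0.37, 95% interval -0.97 to 0.24). Under KCl it was at 17.1 and 21.1 CPM and at 13.1, 16.1 and 11.6 CPM (-0.49, -1.10 to 0.13), without overlap. Dll1 lay on the other side, at 5.69 and 8.30 CPM in resting NT and at 8.19, 9.18 and 10.5 CPM with vector (0.41, adjusted p 0.236, edgeR). Under KCl Dll1 was at 5.35 and 7.36 CPM and at 8.55, 8.12 and 10.9 CPM, without overlap (0.53, adjusted p 0.163, edgeR). Jag1 ran from 1.66 to 2.34 CPM in the 4 NT libraries, and 1 vector library in each state was apart from the others, at 2.69 CPM at rest and 2.51 CPM under KCl against 0.847 to 0.955 CPM in the other 4 vector libraries. The Jag1 log2 fold changes were -0.37 and -0.54. Rbpj was at 17.6 and 19.0 CPM in resting NT and at 16.0, 15.1 and 17.4 CPM with vector (-0.18), and under KCl its groups overlapped (0.08).

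Of the repressor genes, Hes5 was lower with vector in every library than in NT at rest, on 1, 12 and 8 counts against 21 and 27 (-1.41, 95% interval -2.65 to -0.17, adjusted p 0.179, edgeR). Under KCl it was so again, on 6, 5 and 6 counts against 22 and 9 (-1.20, adjusted p 0.353, edgeR). Hey2 was at 0.977 and 1.10 CPM in resting NT and at 0.162, 0.950 and 0.255 CPM with vector (-1.16, adjusted p 0.331, edgeR), and overlapped under KCl (-0.21). Hes1 was at 13.3 and 11.5 CPM in resting NT and at 8.08, 9.60 and 12.3 CPM with vector (-0.32, adjusted p 0.337, edgeR). Under KCl the Hes1 groups were apart, at 13.3 and 14.9 CPM in NT and at 10.3, 8.30 and 9.84 CPM with vector (-0.57, SE 0.179, adjusted p 0.100, edgeR). Hes6 was higher with vector under KCl, at 15.8, 16.5 and 17.8 CPM against 10.8 and 13.3 CPM (0.47, SE 0.150, adjusted p 0.107, edgeR), while at rest its groups overlapped (0.16). Hey1 overlapped at rest (-0.13) and had a log2 fold change of 0.21 under KCl. Of these differences none passed, so their direction rests on the spread of 2 or 3 libraries a group.

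**Figure D3:**
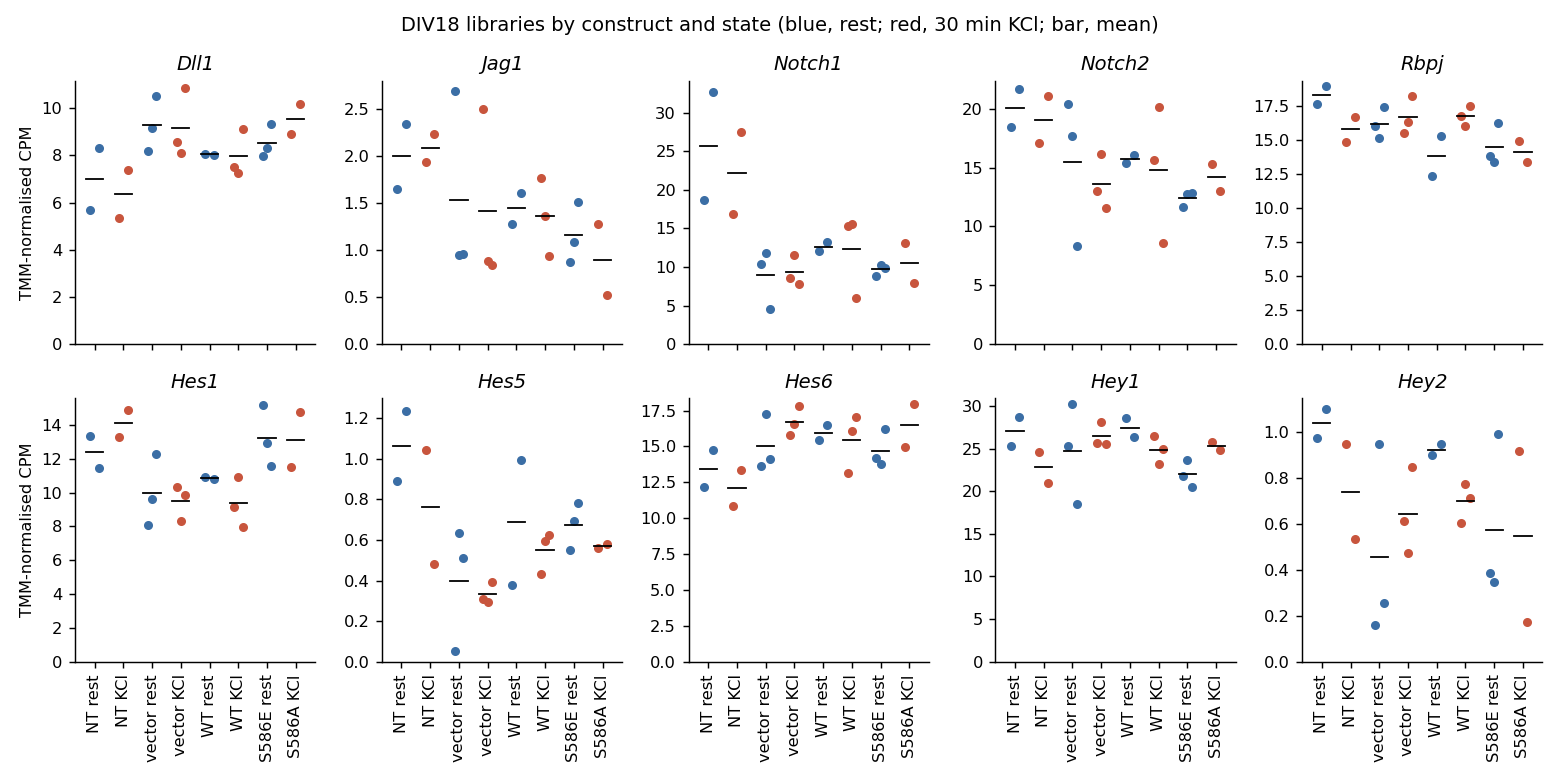
Each member in the 20 DIV18 libraries by construct and state, as TMM-normalised CPM on linear axes that start at 0 (blue, rest; red, 30 min KCl; black bar, group mean). Notch1 is at 16.9 to 32.7 CPM in the 4 NT libraries and at 4.58 to 15.6 CPM in the other 16.

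At rest, the marker sums of several other cell types were lower with vector than in NT, as Notch1 was. The sum for endothelial and mural cells was higher. Over all genes 5.9% were called in that comparison. The astrocyte list summed to 1653 and 1833 CPM in resting NT and to between 956 and 1410 CPM with vector, and Slc1a2 (-0.49) and Aldoc (-1.11) of its 9 genes were called lower, with none at 0. Of 8 markers of the oligodendrocyte lineage 5 were called lower at rest (Pdgfra, Cspg4, Olig1, Sox10 and Gpr17), and Sox10 and Gpr17 were at 0 in all 3 resting vector libraries. The whole oligodendrocyte list summed to 197 and 208 CPM in resting NT and to 133 to 151 CPM in resting vector cultures, but under KCl NT stood at 129 and 212 CPM and vector at 112 to 132 CPM, which overlap. Proliferation genes (6) summed to 16.9 and 32.3 CPM in resting NT and to between 2.43 and 5.60 CPM in resting vector cultures, and Mki67 was called lower (-3.73). Radial glia and progenitor markers (8) summed to 228 and 235 CPM in resting NT and to 74.0 to 194 CPM in resting vector cultures, none of them called at rest. NT resting replicate 2 had both the highest Notch1 and the highest proliferation sum of all libraries, and vector resting replicate 3 had the lowest of both Notch1 and the radial glia sum. Other lists ranked these libraries differently. On the astrocyte list NT resting replicate 2 (1653 CPM) lay below replicate 1 (1833 CPM). The proliferation sum of vector resting replicate 3 (5.6 CPM) lay above those of replicates 1 and 2 (2.9 and 2.4 CPM). The highest astrocyte and radial glia sums were in NT KCl replicate 2 (2024 and 274 CPM). Csf1r, of microglia, was called lower (-1.31) and Rgs5, of mural cells, higher (1.65). The endothelial and mural list (9 genes) summed to at most 20.3 CPM in resting NT and to between 34.9 and 50.1 CPM in resting vector cultures. These sides were not particular to vector. In resting WT addback the astrocyte list summed to 1080 to 1260 CPM and the oligodendrocyte list to 109 to 135 CPM. Proliferation genes there summed to 4.74 to 6.41 CPM, radial glia markers to 169 to 190 CPM and the endothelial and mural list to 29.0 to 42.3 CPM. Resting S586E cultures lay on the same sides of NT in these 5 lists. The part of these cell types in the Notch1 value was not tested.

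**Figure D4:**
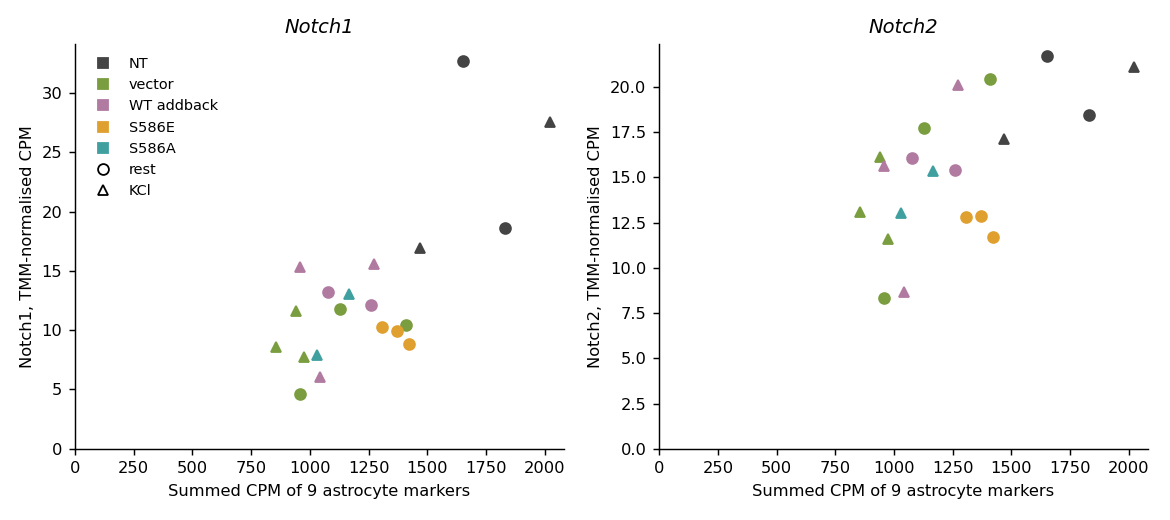
Notch1 (left) and Notch2 (right) as TMM-normalised CPM against the summed CPM of 9 astrocyte markers in the 20 DIV18 libraries; colours give the construct, circles rest and triangles KCl. The 4 NT libraries (black) lie at 1468 CPM or more on the horizontal axis and hold the highest Notch1 values, from 16.9 CPM.

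Which genes varied as the members did across the 20 DIV18 libraries was taken as a description. The points share constructs and cell composition, and no p is given. The 3 genes most like Notch1 by Pearson's r of log2(CPM + 1) were S100a1 (r 0.966), Apoe (0.962) and Inppl1 (0.952). Those most like Notch2 were Sox9 (0.932), a transcription factor of glia that is also on the astrocyte list, Megf10 (0.931) and Lamb2 (0.930). Apoe encodes a lipid carrier made largely by astrocytes. The receptor genes varied together (r 0.872), and Notch1 varied against Dll1 (-0.629). Hes5 varied with Notch1 less closely (0.413), as did Hes1 (0.222).

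Adding back Smarcc2 gave no call among the members. WT addback against vector called 0.0143% of genes at rest and 0.00955% under KCl, and 0 of 10 members, with 0 at an unadjusted p under 0.05 in either state and 0 by DESeq2. Notch1 was at 12.1 and 13.2 CPM with WT addback at rest and at 15.3, 15.6 and 6.04 CPM under KCl. At rest these values lay above all vector libraries and below both NT libraries, and under KCl they overlapped vector only. Against NT, which the vector comparison also used, WT addback called 0.105% of genes at rest and 0.201% under KCl, again with 0 of 10 members by edgeR or DESeq2 (2 and 3 at an unadjusted p under 0.05, beside 1650 and 2300 of all genes). Notch1 gave -1.02 (adjusted p 0.508, edgeR) at rest and -0.85 (adjusted p 0.397, edgeR) under KCl. Rbpj was at 12.4 and 15.3 CPM with WT addback at rest, below both NT libraries (-0.40, adjusted p 0.366, edgeR). Under KCl, Hes1 was at 9.16, 10.9 and 7.96 CPM with WT addback (-0.59, adjusted p 0.196, edgeR) and Hes6 at 13.2, 16.1 and 17.1 CPM (0.35, adjusted p 0.381, edgeR). For Hes1 and Hes6 the sides were thus those of vector against NT.

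The substituted proteins were compared with WT addback and with vector in the state in which each was sequenced. S586E against WT addback at rest called 0 genes by edgeR (0%), with 323 by DESeq2 and 2696 below 0.05 before adjustment, and S586A against WT addback under KCl called 0 (0%), with 11 by DESeq2 and 1824 before adjustment. Against vector, S586E called 0.0191% and S586A 0.00955% of genes. None of the 10 members was called in these 4 comparisons by edgeR or DESeq2, with 1 in each at an unadjusted p under 0.05. In 3 of the 4 that member was Hes1. Hes1 was at 15.2, 12.9 and 11.6 CPM with S586E, against 8.08 to 12.3 CPM with vector (0.41, 95% interval 0.07 to 0.75, adjusted p 0.579, edgeR). With S586A it was at 11.5 and 14.8 CPM, above every depolarized vector and WT addback library (0.46 against vector, adjusted p 0.283, and 0.49 against WT addback, adjusted p 0.515, edgeR). For S586E against WT addback the member was Hey1, at 21.8, 23.6 and 20.4 CPM against 28.6 and 26.3 CPM (-0.32, adjusted p 0.359, edgeR). Notch1 was at 8.84, 10.3 and 9.93 CPM with S586E and at 13.1 and 7.87 CPM with S586A, below all NT libraries. Smarcc2 RNA itself was at 1164 to 1276 CPM with S586E and at 756 and 816 CPM with WT addback at rest. Under KCl it was at 1340 and 1303 CPM with S586A and at 895, 737 and 1089 CPM with WT addback, so both substituted constructs lay above WT addback without overlap.

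Of the 60 pathway genes tested at DIV18, 6 were called between vector and NT at rest, 1 higher and 5 lower, with a median of -0.06, against 5.9% of all genes. Dlk1, a Delta-like protein without the domain by which ligands activate Notch, rose from 52.6 and 28.0 CPM in NT to 148, 171 and 105 CPM (1.81, SE 0.382, adjusted p 0.00952, edgeR). Under KCl Dlk1 was at 73.5 and 119 CPM in NT and at 126, 162 and 94.5 CPM with vector, which overlap. Id4, an inhibitor of proneural factors expressed in astrocytes and progenitors, fell from 7.35 and 9.96 CPM to 3.07, 4.01 and 2.87 CPM (-1.38, SE 0.237, adjusted p 0.00276, edgeR). Dtx4, a ligase of the Deltex family that acts on Notch, fell from 42.5 and 52.8 CPM to 28.3, 27.1 and 29.3 CPM (-0.75, SE 0.129, adjusted p 0.00260, edgeR). Dtx1 (-0.25), the coactivator gene Maml2 (-0.93) and the gamma-secretase gene Aph1c (-0.81) were also lower, the last being uncertain because reads can be shared with its paralogue Aph1b. None of the 6 passed without NT resting replicate 2, where Dlk1 was at 1.43 (adjusted p 0.238), Id4 at -1.15 (adjusted p 0.0994) and Dtx4 at -0.59 (adjusted p 0.110, edgeR), and 3 passed when the 2 groups were fitted alone. Under KCl 2 were called, both lower, among them the corepressor gene Spen (-0.33), against 2.67% of all genes. With the replicate number as a block 6 were called there, and 0 without NT KCl replicate 2 or without any 1 of the 3 vector libraries. In the comparisons of addback cultures with vector, NT or WT, leaving aside WT addback against NT under KCl, none of the 60 was called by edgeR, with 2 to 13 at an unadjusted p under 0.05.

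Counts were then followed to annotated transcripts. Hes6 had a protein-coding form, Hes6-201, and a form that keeps an intron, Hes6-202. At DIV7 Hes6-202 held 52.2 to 57.5% of the Hes6 counts in the 4 libraries, and at DIV18 a median of 23.2% over 20 libraries (9.68 to 55.2%). Only 1 DIV18 library, among the resting vector cultures, reached the DIV7 range. At DIV7 resting libraries were at 52.2 and 55.8% and depolarized ones at 54.3 and 57.5%, so the groups overlapped. Since one form differs from the other by the intron, the shares are the authors' estimates and are less certain than the gene totals. The annotated short form Notch1-208, of 157 bases, held at most 19.5% of Notch1 counts but up to 98.0% of its TPM, and the length offsets weight transcripts by TPM. Rbpj counts were spread over several coding forms, with Rbpj-203 at 37.2 to 47.6% at DIV7 and 18.4 to 85.0% at DIV18.

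**Figure D5:**
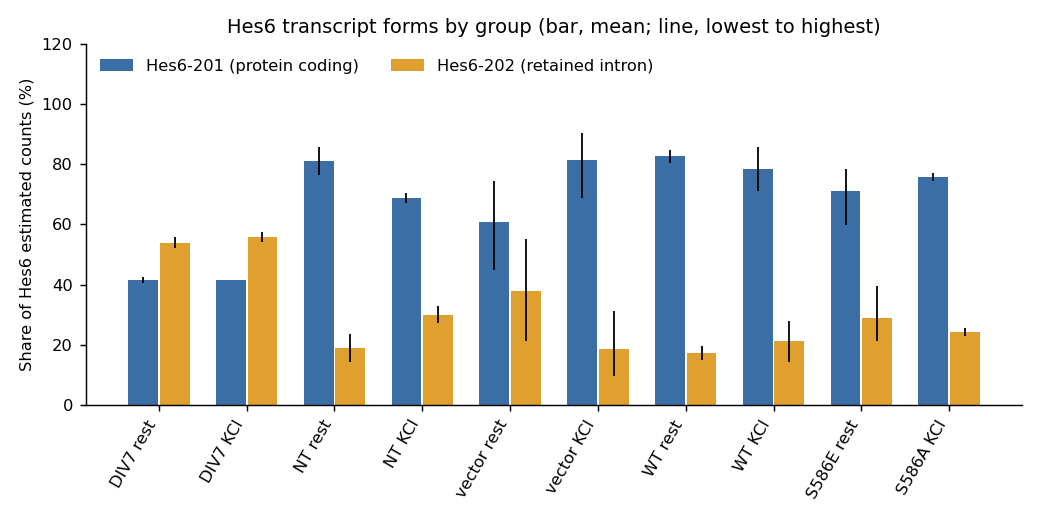
Share of Hes6 estimated counts, in percent, held by the coding transcript Hes6-201 (blue) and the intron-retaining Hes6-202 (orange) in each group; bars are means and lines run from the lowest to the highest library. Hes6-202 holds 52.2 to 57.5% in the DIV7 libraries and has a median of 23.2% at DIV18.

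Levels between genes were compared per length, as TPM summed over protein-coding transcripts (a choice made after the short Notch1 form was seen). In resting DIV7 cultures Hes6 was highest, with a mean of 41.2 TPM, followed by Dll1 (13.7), Hey1 (11.4), Rbpj (10.5), Hes5 (5.64), Notch2 (3.53), Hes1 (1.84), Notch1 (1.55), Hey2 (1.19) and Jag1 (0.731). No neighbours in this order overlapped in their 2 libraries. In resting NT cultures at DIV18 the order was Hey1 (9.96 TPM), Hes6 (8.19), Hes1 (7.64), Rbpj (2.98), Dll1 (2.68), Notch1 (2.27), Notch2 (1.61), Hes5 (0.763), Hey2 (0.379) and Jag1 (0.318). Here Hes6 overlapped Hes1, Rbpj overlapped Dll1, Dll1 overlapped Notch1, Notch1 overlapped Notch2, and Hey2 overlapped Jag1. Set side by side, Hes5 was 7.39-fold higher at DIV7, Dll1 5.10-fold, Hes6 5.04-fold, Rbpj 3.52-fold, Hey2 3.14-fold, Jag1 2.30-fold and Notch2 2.19-fold on this scale. On the CPM scale without TMM these ratios were smaller, at 3.37-fold for Hes5, 3.24-fold for Dll1, 4.75-fold for Hes6, 1.74-fold for Rbpj, 1.59-fold for Hey2, 1.14-fold for Jag1 and 1.05-fold for Notch2. Higher at DIV18 were Notch1, 1.47-fold in TPM and 2.99-fold in CPM, and Hes1, 4.15-fold in TPM. In CPM the Hes1 ratio was 7.32-fold, from 43 and 46 counts at DIV7 rest and 250 and 314 in resting NT. Hey1 was 1.15-fold higher at DIV7 in TPM but 1.72-fold higher at DIV18 in CPM, so its direction is not settled. Hes1 and Hes5 thus stood in opposite order at the 2 ages. Age, library type and the presence of a guide changed together and cannot be told apart.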

How the data were processed

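Each deposited table held, per the file headers, 142552 transcripts, each with an estimated count, a TPM value and 2 lengths (full and effective). FastQC, cutadapt and kallisto are named in the submitters' processing notes. The estimated counts are the authors' split of reads among transcripts, often not whole numbers, and the authors' TPM values are the same scaled by effective length. The build is not given in the sources used here. Of the transcripts, 99.2% matched an identifier of GENCODE M21 (GRCm38), and the others held at most 0.467% of a library's counts.

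Counts were summed per gene and rounded. edgeR 4.0.16 in R 4.3.3 gave the tests (two-sided quasi-likelihood F test, TMM, filterByExpr, Benjamini-Hochberg over all genes tested, threshold 0.05). The 4 DIV7 libraries (2 residual degrees of freedom) and the 20 DIV18 libraries in 8 groups (12) were fitted apart. Standard errors come from the F statistic. Members, lists, markers and alternatives were chosen with earlier results of these data known. Named genes are the members, the called genes of each list, the 3 genes most like a member and transcripts with over 10% of a member's counts. Genes overlapping or sharing reads with a copy can be miscounted. Tests were checked on simulated data. The values of 1 pathway gene are not reported here.

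Whether replicate numbers pair libraries was checked through the correlation of deviations from group means. In vector cultures same-numbered libraries gave 0.160, 0.131 and 0.327, which pairs them by the rule used (at least 3 pairs, all above 0.1), although replicate 1 correlated more with another number (0.205). The alternatives were DESeq2 1.42.0, median-of-ratios size factors, a block for the replicate number, fits without the low-count filter, with length offsets or on the compared groups alone, and leaving out each library.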

Additional observations from a re-analysis of the deposited data

How the results depend on the processing

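For 47 member values, 535 alternative values were computed. Of these 504 kept direction and side of the threshold (at DIV7, stayed within the spread between replicates), 4 were no longer past it and 7 were newly past it. At DIV7 10 moved, and at DIV18 10 changed sign. Changes of sign were not counted at DIV7. There Notch1 ran from -0.094 to 0.218 over the fits and Hes6 from -0.057 to 0.148. Jag1 ran from -0.412 to 0.301 and Rbpj from -0.141 to 0.007. The number of members called between vector and NT at rest was 1, and it was 0 with length offsets and when the 2 groups were fitted alone, and 0 to 1 when a library was left out. Under KCl it was 0, but 3 with no low-count filter (Hes1, Notch1 and Notch2) and 1 when the 2 groups were fitted alone. Between WT addback and NT, no low-count filter gave 1 at rest and 2 under KCl. With length offsets Rbpj in vector against NT at rest was 0.40 and Notch1 in WT addback against NT at rest was 0.49, both of the other sign. The cause was not tested. With a library left out, these DIV18 values changed sign. The mean response ran from -0.141 to 0.039 for Dll1 and from -0.30 to 0.25 for Hey2. The Hes5 response ran from -0.79 to 0.28 with vector and from -0.85 to 0.52 with WT addback (each positive without resting replicate 2). In vector against NT, Hey1 at rest ran from -0.299 to 0.041. In that comparison under KCl, Hey2 ran from -0.56 to 0.26 and Rbpj from -0.005 to 0.16. None of these was past the threshold in any fit. With the replicate number as a block, Notch1 in vector against NT at rest was -1.33 (adjusted p 0.00979, edgeR), and the block changed no call of a member. The block treats libraries of the same number as linked across all constructs, which the labels do not state. With no low-count filter 12 and 9 pathway genes were called between vector and NT at rest and under KCl, where 6 and 2 had been, and DESeq2 called 8 and 5. At DIV7 the block called 24 pathway genes where 16 had been, and 5857 of all genes where 3371 had been. For the DIV18 responses no low-count filter called 1 pathway gene in NT, 2 with vector, 2 for the mean and 4 for vector minus NT, where 0 had been, and DESeq2 called 1 for the mean. In NT the same-numbered libraries gave a correlation of -0.121, and the crossed pairing called 6 genes for the NT response where the block as labelled called 8. In WT addback it was -0.060 and -0.112. In DIV7 cultures it was 0.102, over 2 pairs, where the rule for pairing asks for 3, so the block is given for them as an alternative. With 2 libraries in each group, at DIV7 and in NT, both pairs must give the same correlation. Hes5 and Hey2 at DIV18, with 1 to 27 and 3 to 24 counts a library, are limited by depth. A lone library left in an arm is assumed to vary like the other groups.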

Other observations

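The other members had these nearest genes by Pearson's r over the 20 DIV18 libraries, given as values. For Hes1 they were Bcar1 (0.897), Grk2 (0.865) and Wscd1 (0.860). For Hes5 they were Zbtb7b (0.847), Lrp10 (0.830) and Zfpm1 (0.821), at counts of 1 to 27. For Hey1 they were Psmd9 (0.840), Efnb3 (0.827) and Cox6b2 (0.826). For Dll1 they were Ptprk (0.836), Rpl19-ps1 (0.799), a pseudogene that can share reads with its parent gene, and Rnf17 (0.791), which was also the nearest gene of Hes6 (0.818). Dll1 and Hes6 themselves varied together (0.766).

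Lfng, which fell with KCl at DIV7, was at 5.31 and 4.27 CPM in resting NT cultures at DIV18 and at 2.98 and 5.82 CPM after KCl, so its groups overlapped there. Tle2 was at 29.0 and 29.6 CPM at DIV7 rest and at 3.19 and 2.39 CPM in resting NT cultures, in libraries of another type.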
